A study of Mus musculus with 6 samples.

Results

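The 44 genes described here encode the secreted and membrane-bound proteases that degrade extracellular matrix, together with their dedicated inhibitors: 22 matrix metalloproteinases (MMPs), 18 ADAMTS proteases and 4 tissue inhibitors of metalloproteinases (TIMPs). They were chosen by symbol, as every gene whose symbol is Mmp, Adamts or Timp with its family number and that has a probeset naming it alone. A probeset is a group of short probes on the array that together report a transcript. The 44 genes came from 68 probesets of the 35556 on the array and were 44 of the 19938 genes named in this way, and where several probesets named a gene, the brightest on average stood for it. Mmp15 and Adamts2 had no probeset naming them alone.

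Expression was measured on Affymetrix Mouse Gene 1.0 ST arrays in primary osteoblasts grown out of the long bones of male WT C57BL6/J mice aged 8 to 12 weeks. Cells of 3 mice, taken here as the cultures numbered 2, 4 and 5, were differentiated for 14 days in osteogenic medium and used on day 15, at passage 2 to 3 by the labels and passage 2 by the methods. The unstimulated group (1 culture per mouse, 3 arrays) was kept for 4 h in normal proliferation medium, and the C5a group (1 culture of the same mice, 3 arrays) was given 100 ng/ml recombinant murine C5a in that medium for the same 4 h. C5a is the anaphylatoxin released when complement component C5 is cleaved, and osteoblasts carry its receptor. Both groups had therefore left osteogenic medium for the stimulation, no group was kept in it, and each mouse stands for 1 outgrowth culture.

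The values are log2 expression values after robust multiarray averaging, with medians of 5.89 to 5.93 on the 6 arrays. A fold change is the log2 value with C5a minus that without, fitted in limma with the mouse as a block and given with its standard error (SE), and each adjusted p is a Benjamini-Hochberg value over all 35556 probesets unless another set is named. Of 8 osteoblast markers measured (Runx2 and Bglap had no probeset of their own), 0 passed the thresholds of the methods with C5a. Col1a1 lay between 13.32 and 13.79 and Sparc between 14.02 and 14.20 on the 6 arrays. Some varied more, with Sp7 between 6.16 and 8.73 and Phex between 5.32 and 8.91. The 8 averaged 10.63 in mouse 2, 11.25 in mouse 4 and 9.45 in mouse 5. Of the 8, 7 were lowest in both cultures of mouse 5, and 5 differed between mice at an adjusted p of 0.05 (limma). Mouse 5 stood apart in both its cultures. Its 12 macrophage markers averaged 6.25, against 9.26 in mouse 2 and 9.63 in mouse 4, and the macrophage marker Cd68 averaged 6.64 against 10.95 and 11.40. Ibsp, the bone matrix protein bone sialoprotein, averaged 7.29 in mouse 5 against 11.51 and 12.75. These are whole cultures, in which fewer cells of a type and less RNA per cell cannot be told apart.

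MMPs are zinc-dependent endopeptidases that are made as latent proenzymes and cut collagens, proteoglycans and cell surface proteins once activated. ADAMTS proteases are secreted relatives with thrombospondin repeats, several of which cut the large proteoglycans aggrecan and versican, while others process procollagen. TIMPs bind the active site of the proteases and block it, and TIMP3, which stays bound to the matrix, also blocks the aggrecan-cleaving ADAMTS enzymes. In bone, osteoblasts release MMP13 and carry MMP14 on their surface, and MMP9 is known as the gelatinase of osteoclasts.

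With C5a, 3 of the 7 genes for proteoglycan-cleaving ADAMTS enzymes were lower and 2 of the 4 inhibitor genes were higher. Adamts1 was 5.37-fold lower, Adamts5 2.41-fold lower and Adamts9 1.76-fold lower, while Timp3 was 2.23-fold higher and Timp1 1.56-fold higher, and the sign was shared by 3 of 3 mice for each gene. These 5 genes met both thresholds in the methods, namely a change of at least 1.5-fold and an unadjusted p under 0.05. Higher were 2 of the 44 genes (4.55%), both TIMPs, where 1.71% of all probesets passed in that direction, and lower were 3 of the 44 (6.82%), all ADAMTS genes, where 1.57% of all probesets passed. No MMP gene passed. Over all 35556 probesets, 0 of the 44 genes passed an adjusted p of 0.05 in limma with the mouse as a block, where 4 probesets did (0.0112%), and 11 of the 44 had an unadjusted p under 0.05 against 16.2% of all probesets.

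The adjusted p depended on which probesets were fitted together. Among the 21789 probesets naming 1 gene, 6 of the 44 genes passed, namely Adamts1, Adamts5, Adamts6, Timp1, Timp3 and Mmp11, against 3.65% of those probesets. Among the probesets above the 40th percentile of mean values, Adamts1, Adamts5 and Timp3 passed, 3 of the 34 members kept there, against 1.75%. The 10 members that did not reach that level were Mmp1a, Mmp1b, Mmp7, Mmp8, Mmp20, Mmp21, Adamts13, Adamts18, Adamts20 and Timp4. Without the block, limma called 0 members at an adjusted p of 0.05 and 6 at an unadjusted p under 0.05, against 11% of all probesets, and the methods' t-test called 0 and 5, against 8.76%.

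**Figure D1:**
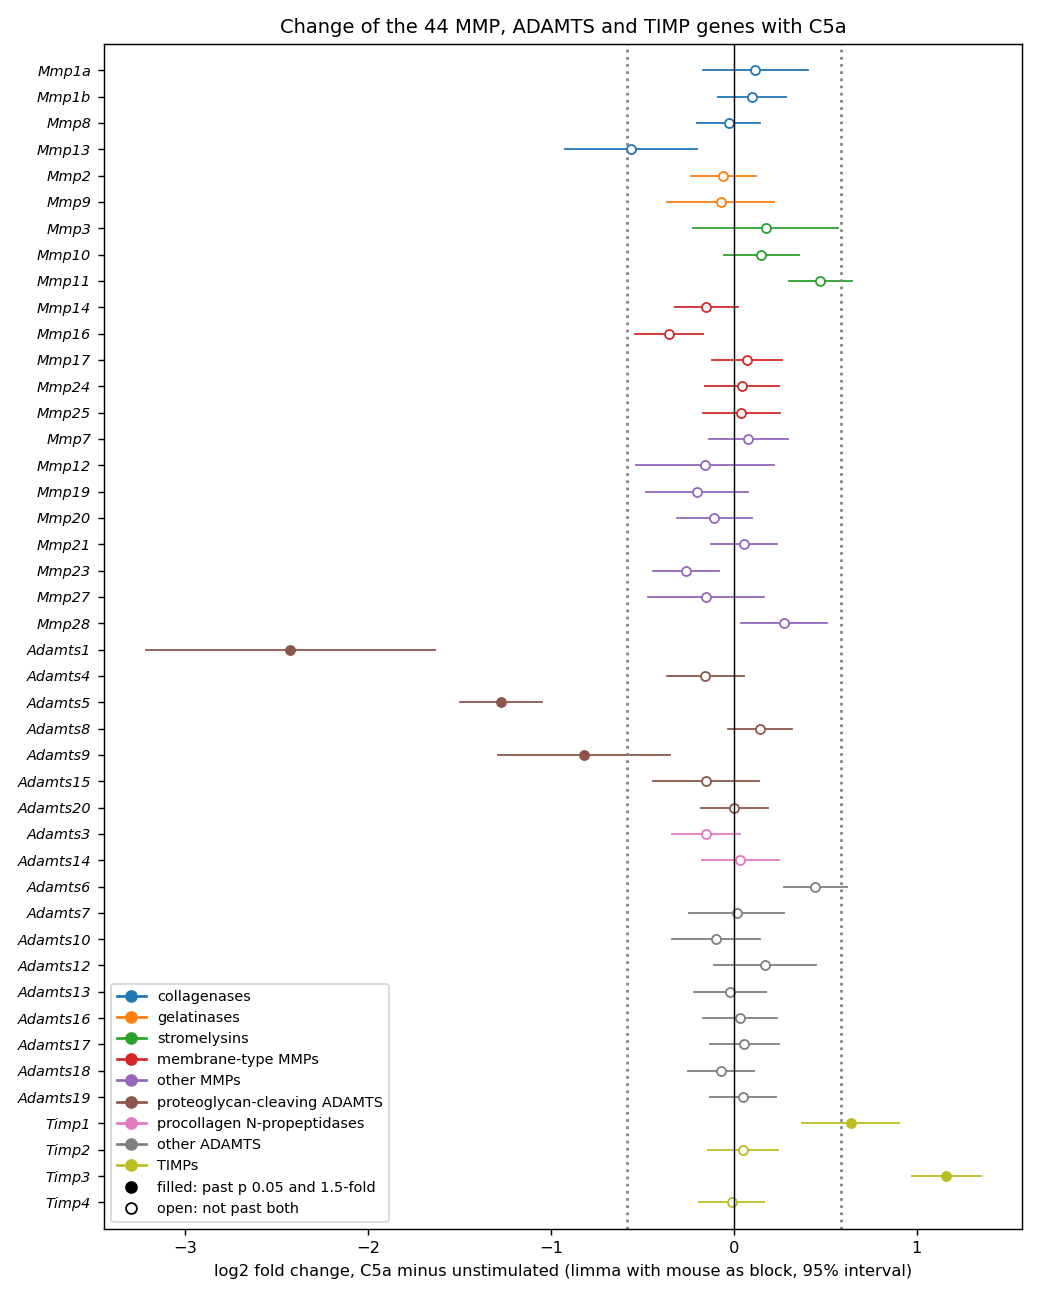
log2 fold change (C5a minus unstimulated, limma with the mouse as a block) of the 44 genes, with 95% confidence intervals from 3 mice. Filled points passed an unadjusted p of 0.05 and 1.5-fold: Adamts1, Adamts5 and Adamts9 lie below 0 and Timp3 and Timp1 above it, while no MMP point is filled.

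Members of the whole set lay on both sides of 0. The median difference of the 44 genes was 0.01, equal to the 0.01 of all probesets. Of the 44, 23 lay above 0, as did 18668 of all 35556 probesets. The sign was the same in 3 of 3 mice for 21 of the 44 and for 13099 of the 35556. The medians were 0.01 for the MMPs, -0.01 for the ADAMTS genes and 0.34 for the TIMPs. Within the ADAMTS genes, the 7 that encode proteoglycan-cleaving enzymes (Adamts1, Adamts4, Adamts5, Adamts8, Adamts9, Adamts15 and Adamts20) had a median of -0.16, and all 3 ADAMTS genes past the thresholds of the methods were among them. The values of C5a and unstimulated cultures did not overlap for 6 of the 44 genes, against 15.2% of all probesets. Timp3 and Mmp11 were on the higher side, and Adamts1, Adamts9, Mmp16 and Adamts4 on the lower side.

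**Figure D2:**
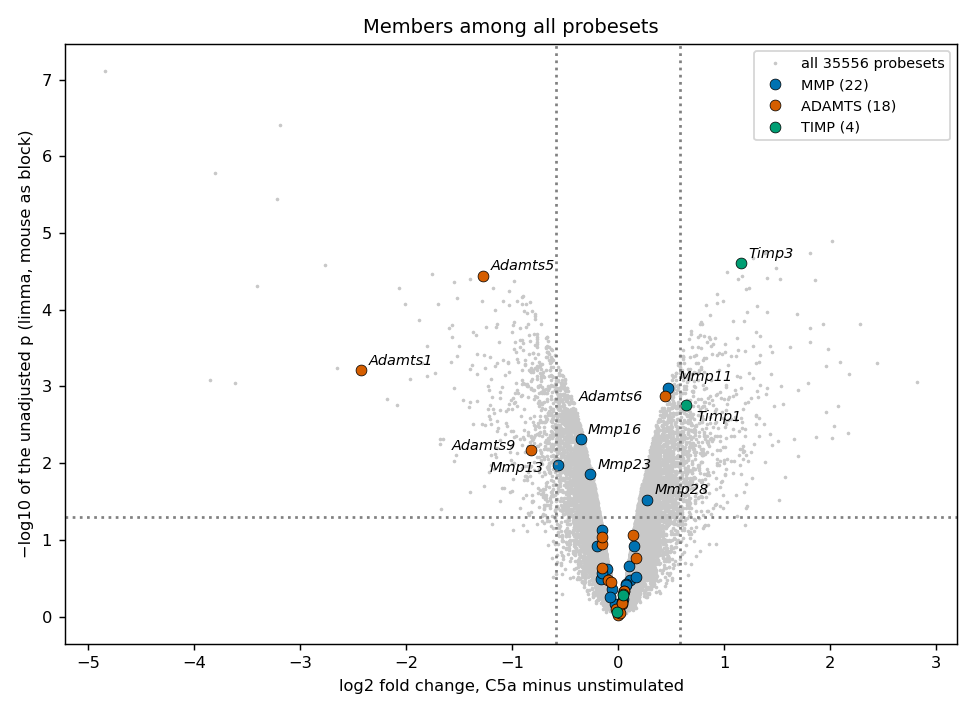
log2 fold change against -log10 of the unadjusted p (limma with the mouse as a block) for all 35556 probesets in grey and the 44 genes in colour, with dotted lines at 1.5-fold and at the unadjusted threshold. The 11 labelled genes lie above the horizontal line, and Adamts1, Adamts5, Adamts9, Timp1 and Timp3 lie outside the fold lines as well.

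Adamts1 encodes a protease that cuts versican and aggrecan and is known as an immediate response gene in several cell types. Its log2 values were 11.11, 10.14 and 11.21 in the unstimulated cultures of mice 2, 4 and 5 and 7.78, 8.03 and 9.36 in their C5a cultures. All 3 C5a values lay below the lowest unstimulated value, and the difference was largest in mouse 2 (-3.33, against -2.11 and -1.84 in mice 4 and 5). The fold change was -2.43 (SE 0.30, 95% confidence interval -3.22 to -1.63), with an adjusted p of 0.0902 over all probesets in limma and 0.0266 among probesets naming 1 gene. It was the largest difference, up or down, among the 44 genes. The study's own list of downregulated probesets from these arrays already includes Adamts1.

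Adamts5 encodes a major aggrecan-degrading enzyme of cartilage and is the next protein-coding gene to Adamts1 on chromosome 16 in the RefSeq gene table of GRCm38.p6, with 0 protein-coding genes between them. Its values were 9.49, 9.93 and 11.86 in unstimulated cultures and 8.24, 8.50 and 10.72 in C5a cultures of mice 2, 4 and 5. The groups overlapped, because mouse 5 was high in both cultures, while the differences within the mice were close to each other at -1.24, -1.43 and -1.14. The fold change was -1.27 (SE 0.09, interval -1.49 to -1.05), with an adjusted p of 0.0704 over all probesets and 0.0143 among probesets naming 1 gene. Without the block the SE was 0.88 and the unadjusted p 0.197, so this gene passes the thresholds of the methods only where the mouse enters the fit as a block or the cultures are paired.

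Adamts9 encodes a further enzyme of this group. Its probeset with the highest mean read 8.63, 8.44 and 8.01 in unstimulated and 7.38, 7.61 and 7.65 in C5a cultures, so that the groups did not overlap. The differences of -1.26, -0.84 and -0.36 gave a fold change of -0.82 (SE 0.18, interval -1.29 to -0.35; adjusted p 0.141). Adamts9 was the only one of these 5 genes with more than 1 probeset, and all 6 of them were lower in 3 of 3 mice and met both of these thresholds, with fold changes of -1.46 to -0.62 and a median of -1.01. The 6 probesets read the same RNA and are not replicates of one another.

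**Figure D3:**
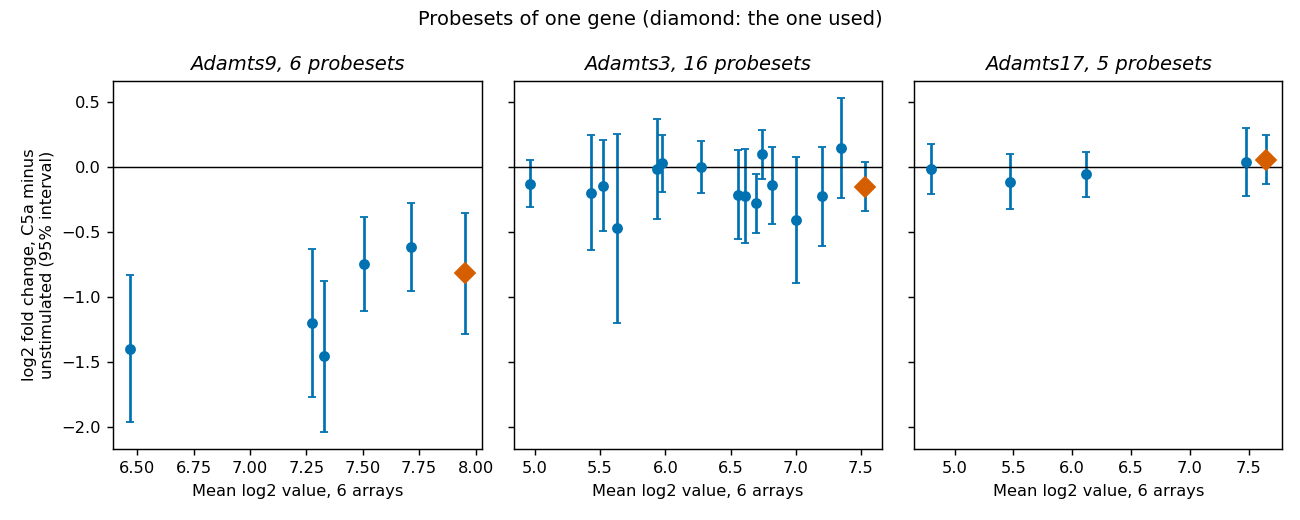
log2 fold change with its 95% interval (3 mice) against the mean log2 value for each probeset of the 3 genes that have several, with the representing probeset as a diamond. All 6 Adamts9 probesets lie below 0, between -1.46 and -0.62, whereas the 16 of Adamts3 run from -0.47 to 0.15 and the 5 of Adamts17 from -0.11 to 0.06.

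The other proteoglycan-cleaving enzymes showed small differences. Adamts4, a second aggrecan-degrading enzyme, read 7.67, 7.90 and 7.69 without C5a and 7.54, 7.61 and 7.64 with it, a fold change of -0.16 (interval -0.37 to 0.06, adjusted p 0.460). Its groups did not overlap, and the test did not separate them. Adamts8 (fold change 0.14) and Adamts15 (-0.15), which also neighbour each other on chromosome 9 with 0 protein-coding genes between them, and Adamts20 (0.003) stayed at an unadjusted p of 0.05 or more. Of the procollagen-processing group, Adamts3 and Adamts14 were measured, and none of the 16 probesets of Adamts3 passed the thresholds of the methods. Adamts6, whose enzyme is less well characterised, read 5.78, 6.50 and 7.00 without and 6.21, 6.96 and 7.44 with C5a. Its fold change was 0.44 (SE 0.07, adjusted p 0.102), or 1.36-fold, and it is named here after its value was seen in this comparison as well as for its difference between mice described further on.

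The sequences before the starts of Adamts1 and Adamts9 are shown because these are the lower genes for which the RefSeq promoter table of GRCm38.p6 holds an entry. They are the 250 bases before the start, 5′ to 3′ on the strand of the gene, at chr16:85803114-85803363 (minus strand) and chr6:92943535-92943784 (minus strand). Capitals mark matches on either strand to the motifs searched, which were the AP-1 element TGANTCA, the CRE core TGACGT, the RUNX site TGTGGT, the TATA box TATAAA and the GC box GGGCGG. None of these motifs contains another.
Adamts1: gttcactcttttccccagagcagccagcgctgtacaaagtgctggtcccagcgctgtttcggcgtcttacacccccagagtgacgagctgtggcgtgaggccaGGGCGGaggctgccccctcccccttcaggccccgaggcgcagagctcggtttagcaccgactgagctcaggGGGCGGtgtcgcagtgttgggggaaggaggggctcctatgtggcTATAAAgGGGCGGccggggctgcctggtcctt
Adamts9: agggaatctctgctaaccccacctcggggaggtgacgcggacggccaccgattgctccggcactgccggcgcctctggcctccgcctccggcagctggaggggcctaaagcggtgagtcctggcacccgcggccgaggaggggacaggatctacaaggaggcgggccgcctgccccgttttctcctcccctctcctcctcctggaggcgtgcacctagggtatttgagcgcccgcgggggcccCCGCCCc
The Adamts1 sequence holds GC boxes that begin 147, 76 and 25 bases before the start and a TATA box that begins 32 bases before it. The Adamts9 sequence holds a GC box on the opposite strand next to the start. In the same 250 bases of all 32851 entries of the table, 32.7% held a GC box, 12.4% a TATA box, 14% the RUNX letters, 6.75% an AP-1 element and 6.47% a CRE core. Entries were found for 30 of the 44 genes. A match is a description of the letters, and use of these motifs was not measured.

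Among the inhibitors, Timp3 and Timp1 were higher and Timp2 and Timp4 showed small differences. Timp3, the matrix-bound inhibitor, read 12.57, 11.54 and 11.82 in unstimulated and 13.64, 12.76 and 13.01 in C5a cultures of mice 2, 4 and 5. The groups did not overlap, and the differences of 1.07, 1.22 and 1.19 were nearly the same in the 3 mice. The fold change was 1.16 (SE 0.07, interval 0.97 to 1.35), with an adjusted p of 0.0704 over all probesets and 0.0143 among probesets naming 1 gene.

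Timp1, a secreted inhibitor of most MMPs, read 12.67, 11.96 and 12.10 without C5a and 13.15, 12.83 and 12.66 with it. The C5a culture of mouse 5 lay at the level of the unstimulated culture of mouse 2, and the gene was higher with C5a within each mouse, by 0.48, 0.87 and 0.57. The fold change was 0.64 (SE 0.10, interval 0.38 to 0.90; adjusted p 0.108 over all probesets and 0.0392 among probesets naming 1 gene). Without mouse 4 it was 0.52, below 1.5-fold. Timp2, which takes part in the activation of pro-MMP2 by MMP14, read 12.89, 12.83 and 12.90 without and 12.84, 12.93 and 13.00 with C5a, a fold change of 0.05 (interval -0.14 to 0.24, adjusted p 0.848). Timp4 lay between 4.71 and 4.98 on the 6 arrays, below the 40th percentile of all probesets, with a fold change of -0.01 (adjusted p 0.970).

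The sequences before Timp1 and Timp3 are shown as the counterpart, the genes that were higher. They are 250 bases at chrX:20869916-20870165 and chr10:86300162-86300411 of GRCm38.p6 (RefSeq, both plus strand), with the same motifs in capitals.
Timp1: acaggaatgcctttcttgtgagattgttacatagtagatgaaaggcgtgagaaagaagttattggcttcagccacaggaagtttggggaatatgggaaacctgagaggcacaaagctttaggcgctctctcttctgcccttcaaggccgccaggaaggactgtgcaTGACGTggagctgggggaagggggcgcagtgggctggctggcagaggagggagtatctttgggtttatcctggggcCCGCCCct
Timp3: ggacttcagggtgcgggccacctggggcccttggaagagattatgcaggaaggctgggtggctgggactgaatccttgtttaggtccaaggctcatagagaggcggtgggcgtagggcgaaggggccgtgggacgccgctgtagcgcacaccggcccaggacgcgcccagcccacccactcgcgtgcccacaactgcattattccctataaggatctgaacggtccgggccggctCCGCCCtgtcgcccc
Timp1 holds a CRE core that begins 84 bases before the start, and both hold a GC box on the opposite strand near the start. Of the 30 members with an entry, the CRE core was found in Timp1 and Adamts3, and the GC box in 14.

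**Figure D4:**
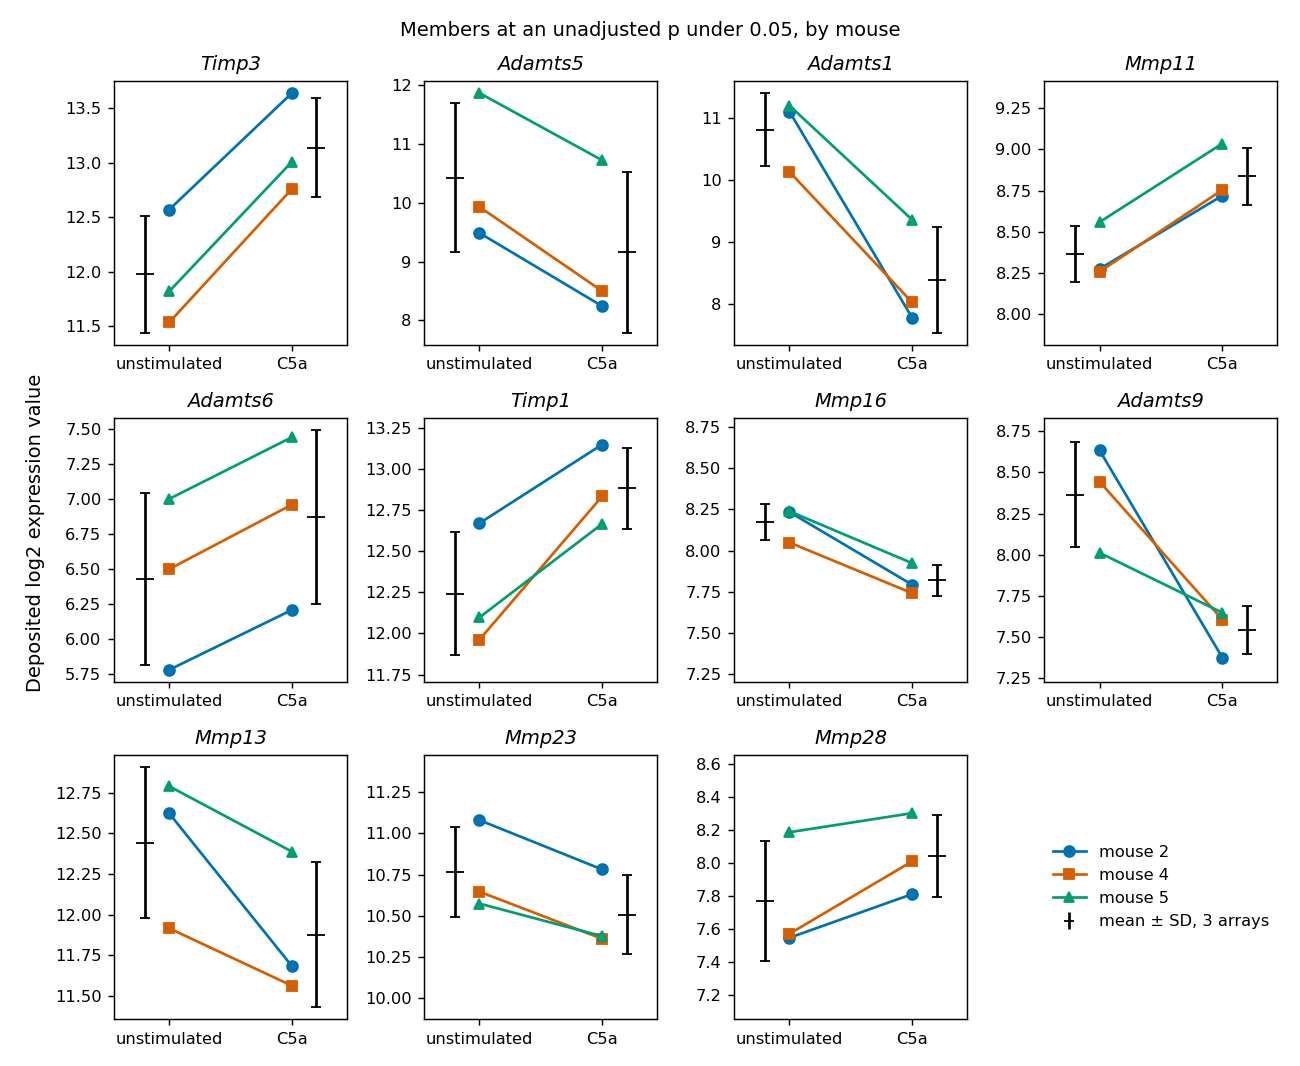
Deposited log2 values of the 11 genes with an unadjusted p under 0.05 in unstimulated and C5a cultures, with each line joining the 2 cultures of a mouse and the black marks giving the mean and SD of 3 arrays. Adamts1, Adamts5 and Adamts9 slope downward and Timp1 and Timp3 upward in every mouse, and the Adamts5 lines run parallel at different heights.

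The MMPs showed the smaller differences, all 22 lying between -0.56 and 0.47. The difference furthest below 0 was that of Mmp13, the collagenase that osteoblasts release. It read 12.62, 11.92 and 12.79 in unstimulated and 11.68, 11.56 and 12.39 in C5a cultures, so it was lower by 0.94, 0.35 and 0.40 within mice 2, 4 and 5, with overlapping groups. The fold change was -0.56 (SE 0.14, interval -0.92 to -0.20; unadjusted p 0.0105, adjusted p 0.161), a 1.48-fold lower level that lay just short of 1.5-fold. It rested on mouse 2 in part, since it was -0.38 without that mouse (adjusted p 0.371), whereas it was -0.67 without mouse 4 and -0.65 without mouse 5, where Mmp13 passed the thresholds of the methods.

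Mmp11, the stromelysin cut to its active form inside the cell, lay on the other side. It read 8.27, 8.26 and 8.56 without C5a and 8.72, 8.75 and 9.03 with it, without overlap, a fold change of 0.47 (SE 0.07, adjusted p 0.0984 over all probesets and 0.0352 among probesets naming 1 gene). Mmp16, a membrane-type MMP, had a fold change of -0.35 (adjusted p 0.131), Mmp23 one of -0.26 (adjusted p 0.176) and Mmp28 one of 0.27 (adjusted p 0.245). Mmp11, Mmp16, Mmp23 and Mmp28 are named after their values were seen, as the remaining MMPs with an unadjusted p under 0.05.

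The gelatinases and the activator of pro-MMP2 did not pass. Mmp2, gelatinase A, read 12.68, 13.09 and 13.19 without and 12.65, 12.99 and 13.15 with C5a, a fold change of -0.06 with an interval of -0.23 to 0.12 (adjusted p 0.801). Mmp14, the membrane-bound protease that activates pro-MMP2, read 11.71, 12.33 and 12.35 without and 11.56, 12.19 and 12.19 with C5a, a fold change of -0.15 with an interval of -0.32 to 0.02 (adjusted p 0.375). Each was lower in 3 of 3 mice by an amount that the test did not separate from 0. Mmp9, gelatinase B, read 7.32, 7.27 and 6.49 without and 6.98, 7.38 and 6.51 with C5a, a fold change of -0.07 with an interval of -0.36 to 0.22 (adjusted p 0.859), and it had no common direction in the 3 mice. For all 33 genes with an unadjusted p of 0.05 or more, fold changes lay between -0.20 and 0.17 and the 95% intervals, which reached from -0.54 to 0.57 at the widest, stayed inside 1.5-fold (0.58 on the log2 scale) in either direction.

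A set of 10 MMP genes forms an unbroken run on mouse chromosome 9, with 0 protein-coding genes between them in the RefSeq gene table. In order they are Mmp13, Mmp12, Mmp1b, Mmp3, Mmp1a, Mmp10, Mmp8, Mmp27, Mmp20 and Mmp7. They had no common direction: 5 lay above 0 and 5 below, from -0.56 to 0.17, and Mmp13 alone had an unadjusted p under 0.05. Only 5 of the 10 lay above the 40th percentile of all probesets. The run is shown by sequence because the AP-1 element, a binding motif of FOS and JUN proteins, stands in the 250 bases before the start of 8 of its 10 genes and of no other member with an entry, against 6.75% of all promoters. A gene was counted where any of its entries held the element, whereas the 6.75% is a share of entries. Mmp12 and Mmp7 have 2 entries each, and only the second of Mmp12 and the first of Mmp7 hold it. Mmp8 and Mmp27 lacked it and are not printed. The TATA box was found in 7 of the 10 and the GC box in 0. The lines give the 100 bases before the start of Mmp13 (chr9:7272414-7272513), of the second entry for Mmp12 (chr9:7347274-7347373), and of Mmp3 (chr9:7445722-7445821), Mmp1a (chr9:7464041-7464140), Mmp10 (chr9:7502242-7502341) and Mmp7 (chr9:7691990-7692089), all on the plus strand of GRCm38.p6 and with motifs in capitals.
Mmp13: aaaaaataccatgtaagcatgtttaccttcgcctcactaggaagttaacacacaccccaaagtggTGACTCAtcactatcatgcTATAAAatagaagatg
Mmp12: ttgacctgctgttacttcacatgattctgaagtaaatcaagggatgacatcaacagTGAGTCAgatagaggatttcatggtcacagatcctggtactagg
Mmp3: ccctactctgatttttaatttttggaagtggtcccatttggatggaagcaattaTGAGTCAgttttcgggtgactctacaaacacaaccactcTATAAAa
Mmp1a: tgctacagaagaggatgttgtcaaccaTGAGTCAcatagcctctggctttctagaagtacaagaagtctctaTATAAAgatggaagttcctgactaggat
Mmp10: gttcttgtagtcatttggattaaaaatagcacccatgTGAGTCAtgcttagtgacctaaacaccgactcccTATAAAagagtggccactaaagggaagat
Mmp7: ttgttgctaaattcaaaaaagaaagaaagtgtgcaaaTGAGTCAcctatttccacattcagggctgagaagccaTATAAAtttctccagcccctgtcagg
The AP-1 element begins 35 bases before the start in Mmp13, 44 in Mmp12, 46 in Mmp3, 73 in Mmp1a and 63 in Mmp10 and Mmp7. Apart from Mmp12, each of these sequences also holds TATAAA between the element and the start. The genes have a shared origin in duplication, so their promoters are not independent of one another.

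The genes of the factors known to act on MMP promoters differed in both directions, and 8 of the 16 measured passed the thresholds of the methods, 5 lower and 3 higher. Of all probesets, 1.57% passed lower and 1.71% higher. The study's own tables from these arrays already list the 5 lower genes as downregulated. Fos read 11.75, 11.58 and 11.44 in unstimulated and 7.04, 6.56 and 6.65 in C5a cultures, and with a fold change of -4.84 and an adjusted p of 0.003 in limma it was the one gene of the list to pass over all probesets. Fosb (-3.62), Junb (-2.01), Egr1 (-1.85) and Jun (-1.55) were lower as well, whereas the FOS relative Fosl1 (1.20) and the ETS factors Ets1 (0.93) and Etv5 (0.59) were higher. The median of the list was -0.06. Whether these factors had any part in the differences of the protease genes was not tested.

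Of 14 genes for proteins that activate the proteases or hold them at the cell surface, 5 passed the thresholds of the methods, all 5 higher. Of all probesets, 1.71% passed in that direction. The list's median was 0.38 against 0.01 for all probesets, and 10 of the 14 lay above 0. Plaur, the receptor of urokinase, had a fold change of 1.18 (SE 0.25) and Plat, tissue plasminogen activator, one of 0.72 (SE 0.20). Plau, urokinase itself, went the other way. It had a fold change of -0.55 (SE 0.18, adjusted p 0.248 in limma), lower in 3 of 3 mice and short of 1.5-fold. Cd44, a hyaluronan receptor that holds MMP9 on the cell, had a fold change of 1.08 (SE 0.20). Itgb3 (1.08, SE 0.10) and Itgav (0.62, SE 0.17), the integrin subunits that pair as a vitronectin receptor, were higher in 3 of 3 mice. The adjusted p of the 5 genes past the thresholds lay in limma at 0.0796 for Itgb3 and above that for the other 4.

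The remaining groups around the proteases held few genes past the thresholds, which 1.71% of all probesets passed higher and 1.57% lower. Among 10 other protease inhibitors and clearance receptors measured, 0 passed; Reck, a membrane-anchored MMP inhibitor, was lower by 0.48 in fold change, in 3 of 3 mice, with an adjusted p of 0.137. Among 15 ADAM and astacin proteases, Adam12 (1.58, SE 0.43) and Adam19 (1.44, SE 0.19) passed, both higher and both encoding membrane-anchored relatives of the ADAMTS enzymes. Among 16 matrix substrates measured, Tnc, the adhesion-modulating glycoprotein tenascin C, passed with a fold change of 0.69, and of 6 ADAMTS-like genes 0 passed. The medians of these lists were 0.05, 0.00, -0.02 and -0.07. Markers of other cells were read alongside: 3 of 6 smooth muscle and pericyte markers passed and were higher (Cspg4 1.70, Des 1.30, Cnn1 0.63). The others of that list did not pass (Acta2 0.11, Rgs5 0.03, Myh11 -0.16). The summed linear level of the list was 13377 to 14605 in unstimulated and 14832 to 18563 in C5a cultures. Most of that sum came from Acta2, whose log2 values were 13.44 to 13.71 on the 6 arrays. In the other lists, 1 of 12 macrophage markers (Mrc1 -0.62), 1 of 6 chondrocyte markers (Sox9 -0.71) and 1 of 6 adipocyte markers (Lpl -0.64) passed, all lower. Of 7 osteoclast and 6 endothelial markers, 0 passed. The median of the 12 macrophage markers was -0.20, with 2 above 0. An unadjusted p under 0.05 (limma) was found for 3 of the 12, against 16.2% of all probesets. Besides Mrc1 these were Ptprc (-0.45) and Adgre1 (-0.31), each lower in 3 of 3 mice. The part of such cells in the differences of the protease genes was not tested.

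Several of these genes differed more between mice than with C5a. With C5a in the same fit, 7 of the 44 genes differed between mice at an adjusted p of 0.05 (limma), against 2.5% of all probesets: Mmp3, Mmp12, Mmp14, Adamts5, Adamts6, Adamts12 and Timp3. Among probesets naming 1 gene, a set added after seeing the data, 9 of the 44 did, with Mmp2 and Mmp9 besides these 7, against 6.99% of those probesets. A mouse and its culture cannot be told apart here. Leaving out mouse 5 left 0 of these calls, and leaving out mouse 2 left Mmp3, Mmp12 and Adamts5. Fits without 1 mouse have fewer arrays, so a lost call does not show that the difference lay with that mouse. The means of Mmp3, for example, were 11.86 in mouse 2 and 8.95 in mouse 4.

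Mmp12, macrophage elastase, read 10.41, 11.51 and 5.45 in unstimulated and 10.18, 11.04 and 5.66 in C5a cultures of mice 2, 4 and 5. Its means per mouse of 10.29, 11.28 and 5.56 spanned 5.72 (adjusted p for mice 0.0025). The fold change with C5a was -0.16 (interval -0.54 to 0.22, adjusted p 0.712), with a higher value in mouse 5 and lower ones in mice 2 and 4, and it was -0.35 without mouse 5 and -0.0068 without mouse 4. Mouse 5 was low in both cultures. The mean of the 12 macrophage markers had the same order of mice, as given above. Of these markers, 11 were lowest in both cultures of mouse 5, 9 differed between mice at an adjusted p of 0.05, and their summed linear level ran from 1236 to 23548 in unstimulated and from 1398 to 18207 in C5a cultures. The part of macrophages in the Mmp12 values was not tested. Mmp9 had its lowest mean in mouse 5 too (7.15, 7.32 and 6.50), with an adjusted p for mice of 0.102 over all probesets.

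Mmp3, stromelysin 1, showed another order. It read 11.81, 8.67 and 12.86 without and 11.91, 9.24 and 12.72 with C5a, so that mouse 4 was low and mouse 5 high in both cultures (means 11.86, 8.95 and 12.79; adjusted p for mice 0.0060). Within mice the C5a difference was small, with a fold change of 0.17 that became -0.027 without mouse 4. Mmp3 and Mmp12 stand 2 places apart in the run on chromosome 9, and their lowest values were in different mice.

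Adamts5 was likewise highest in mouse 5 (means 8.87, 9.21 and 11.29; adjusted p for mice 0.0041), and its C5a culture of mouse 5 read higher than the unstimulated cultures of mice 2 and 4. Adamts6 (means 5.99, 6.73 and 7.22; adjusted p for mice 0.0134) and Adamts12 (6.48, 7.82 and 7.91; adjusted p 0.0215), another secreted protease of the family, were lowest in mouse 2. Mmp14 had a smaller range (11.64, 12.26 and 12.27; adjusted p 0.0462) with the same low mouse. Timp3 was highest in mouse 2 (13.10, 12.15 and 12.41; adjusted p 0.0273).

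**Figure D5:**
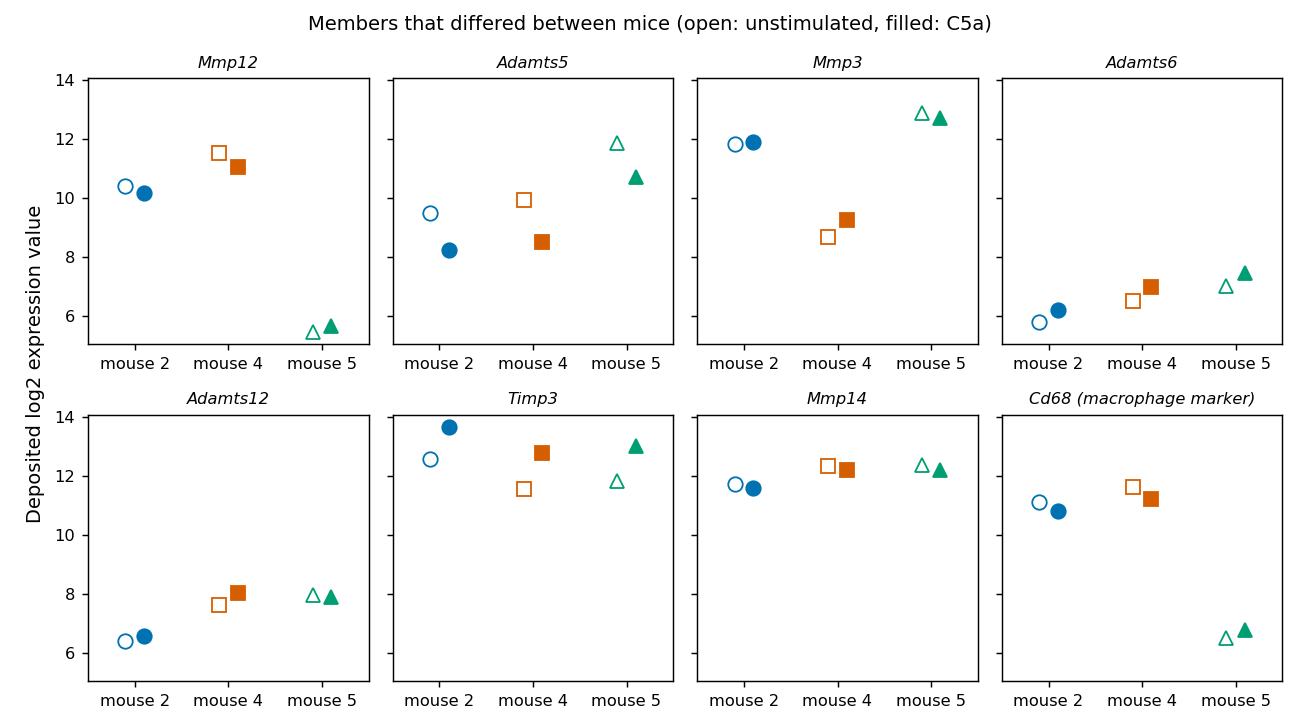
Deposited log2 values of the 7 genes that differed between mice and of the macrophage marker Cd68, for mice 2, 4 and 5, with open points for unstimulated and filled points for C5a cultures. Mmp12 and Cd68 are low in both cultures of mouse 5, Mmp3 is low in mouse 4, and Adamts5 is high in mouse 5 with C5a below unstimulated in every mouse.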

How the data were processed

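Primary osteoblasts of 3 WT mice, with 1 unstimulated and 1 C5a culture each, were measured on 6 arrays. Per the labels and the methods, the authors used Affymetrix Expression Console and BRB-ArrayTools. They deposited log2 expression values per probeset after RMA, the robust multiarray average, and did not centre them per gene. Versions, and whether the cultures stimulated for 30 min, which are not analysed here, were normalized together with these, are not given in the sources used here. All 6 sample columns were used.

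All 35556 probesets were fitted in limma 3.58.1 (R 4.3.3) by lmFit and eBayes with the mouse as a block, without a filter, with Benjamini-Hochberg adjustment. The F test for mice came from the same fit. Probesets were named through the platform annotation, where 21789 name 1 gene, 1621 several and 12146 none, and the Entrez IDs of all 44 members were in the RefSeq gene table. Cross-hybridisation between paralogous transcripts was not tested. The methods' threshold, written there as a fold change of at most 1.5, was read as at least 1.5.

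The labels give both groups the culture numbers 2, 4 and 5, and per the design text cells from each of 3 mice went to both treatments. The numbers were therefore read as the mice, which the labels do not state outright. Deviations from the group means correlated at 0.495 to 0.684 between cultures of a mouse and at -0.446 to -0.0353 between mice. Because each group was centred on its own mean, positive values within mice make those between mice negative on average. The negative values are therefore no separate evidence. Only 3 mice limit the precision. With the block, the p-values for C5a measure how the differences within mice vary from mouse to mouse, with variance shared across probesets. Without the block they also hold the spread between mice.

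Named are the members past the adjusted threshold, those past the thresholds of the methods, the 3 with the largest F for mice in each of the MMPs and ADAMTS genes, and Mmp2, Mmp3, Mmp9, Mmp13, Mmp14, Adamts1, Adamts4, Adamts5 and Timp1 to Timp4 in any case. Adamts2, also in the rule, was not measured. The members, the gene lists and this rule were chosen with earlier results of these data known. Adamts1 and some list genes appear in the study's own tables from these arrays, so Adamts1 and the lists are not independent evidence. Of 18 promoter factors, Runx2 and Nfkb1 were not measured. Some results are left out here. Promoters came from RefSeq (GRCm38.p6) and were searched on both strands.

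Alternatives were leaving out each mouse, the fit without the block, quantile normalization, median centring, limma's trend and robust options, the methods' t-test and its paired form, and fits of the probesets that name 1 gene or whose mean exceeds the 40th percentile (5.33). The steps were tested on simulated data.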

Additional observations from a re-analysis of the deposited data

How the results depend on the processing

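Only 3 pairs were measured, so calls rest on the variance shared across probesets. The probesets past the adjusted p of limma numbered 4, and 0 by the methods' t-test, 0 by the paired t-test, 373 above the 40th percentile, 795 among those naming 1 gene, and 0 to 3 without 1 mouse. Members past it numbered 0, and 3 and 6 in those smaller sets of probesets, which hold fewer tests and gave limma 3.51 and 3.49 prior degrees of freedom against 2.77. Without the replicate block, 5 probesets and 0 members passed, and 4 members in place of 5 passed the thresholds of the methods, as Adamts5 did not. By the methods' t-test 3 did (Adamts1, Adamts9 and Timp3), of which 1 was higher, and by the paired t-test 4, without Adamts9. Without 1 mouse this count ran from 5 to 6 and the higher ones from 1 to 2, since Mmp13 was gained without mouse 4 or 5 and Timp1 lost without mouse 4. Members that differed between mice numbered 7, and 0 to 5 without 1 mouse. The median difference of the members was 0.01 and ran from -0.026 to 0.017 without 1 mouse. With 1 mouse left out, Mmp3 ran from -0.027 (without mouse 4) to 0.33, Mmp9 from -0.16 to 0.066 (without mouse 2) and Timp4 from -0.027 to 0.015 (without mouse 4), past no threshold in either direction. Over the 16 members the rule names, 169 of the results kept direction and side of the adjusted threshold, 8 kept direction and passed it, and 3 changed sign. The fits without the block, both t-tests, the trend option and the smaller sets of probesets leave the fold change itself unchanged. Its direction could therefore change only with centring, quantile normalization, another probeset or a mouse left out, and the tally is no measure of stable direction. Adamts1 ran from -2.72 to -1.97, Adamts5 from -1.34 to -1.19 and Timp3 from 1.13 to 1.21. No variance or normalization alternative (trend with robust estimation, median centring, quantile) changed which members passed the thresholds of the methods.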
